A study of Mus musculus with 4 samples.

Results

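A set of 10 genes of the IL-18, IL-1 and inflammasome pathway was followed on 4 Affymetrix arrays of mouse dendritic cells, 2 from cells given diluent (control) and 2 from cells given SAHA. The genes were Il18, Il18bp, Il1a, Il1b, Il1rn, Nlrp3, Pycard, Casp1, Casp4 and Gsdmd, and all 10 were measured among 18194 genes. They were chosen by name, with earlier results of these data known. They were read from 14 probe sets, each carrying a single gene symbol. Il1rn and Pycard had 3 probe sets each and the other 8 genes had 1, and where several existed the one with the highest average signal stood for the gene. The cells were grown for 7 days from marrow of C57BL/6 mice in GM-CSF and IL-4 (10 ng/ml each), and CD11c-positive cells were then selected magnetically, with a stated purity of 95%. Each experiment pooled marrow from at least 3 mice. Treatment lasted 12 hours, with SAHA at a dose that the labels write as 500 nm, and the labels name no further stimulus for either group. SAHA (vorinostat) inhibits histone deacetylases. The arrays are labelled as biological replicates, and whether each had a marrow pool of its own is not stated, so the p-values reflect only how far these arrays varied.

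IL-1α, IL-1β and IL-18 are cytokines of one family that act through related receptors and the adaptor MyD88. Pro-IL-1β and pro-IL-18 are cut to their active forms by caspase-1, which is itself activated on inflammasomes, assemblies of a sensor such as NLRP3 with the adaptor ASC (gene Pycard). The same protease, and caspase-4 (also called caspase-11 in mice), cut gasdermin D, whose fragment forms membrane pores through which the cytokines leave the cell. IL-18BP and IL-1Ra (gene Il1rn) are secreted inhibitors of IL-18 and of IL-1. In dendritic cells IL-18 is known for acting with IL-12 to raise interferon-γ production by T and NK cells. Arrays report transcripts, so none of the values below speaks to cleavage or release.

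With SAHA, Il18 rose 2.24-fold and was the 1 gene of the 10 past the threshold (limma, Benjamini-Hochberg adjusted p under 0.05 over 18194 genes). None was called lower. Outside the 10 genes, the transcript of the signalling chain of the IL-18 receptor, Il18rap, rose 3.76-fold. The group means of Il1b and Casp1 differed by -0.13 and 0.13 on the log2 scale, less than the spread between the arrays of a group. Among all genes 1.52% were called higher with SAHA, 0.709% lower and 2.23% in either direction. At an unadjusted p under 0.05, 2 of the 10 genes lay higher (Il18 and Pycard) and 2 lower (Il1rn and Gsdmd), beside 9.17% higher, 8.9% lower and 18.1% in either direction over all genes, and an ordinary linear model without moderation called none of the 10. The 10 genes had a median log2 change of -0.0023, with 5 above 0 and 5 below, against -0.0478 over all genes. Their median absolute change was 0.40, against 0.17 over all genes and 0.23 over the 9097 genes above the median level, where all 10 lay. No conclusion is drawn from this difference, since the genes were chosen with earlier results of these data known. Absolute changes also grow with the spread between arrays, which was wide for Il18bp and Casp4. The arrays of the groups did not overlap for 5 of the 10 genes, 3 higher and 2 lower with SAHA, beside 50.7% of all genes (21.1% higher and 29.6% lower).

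**Figure D1:**
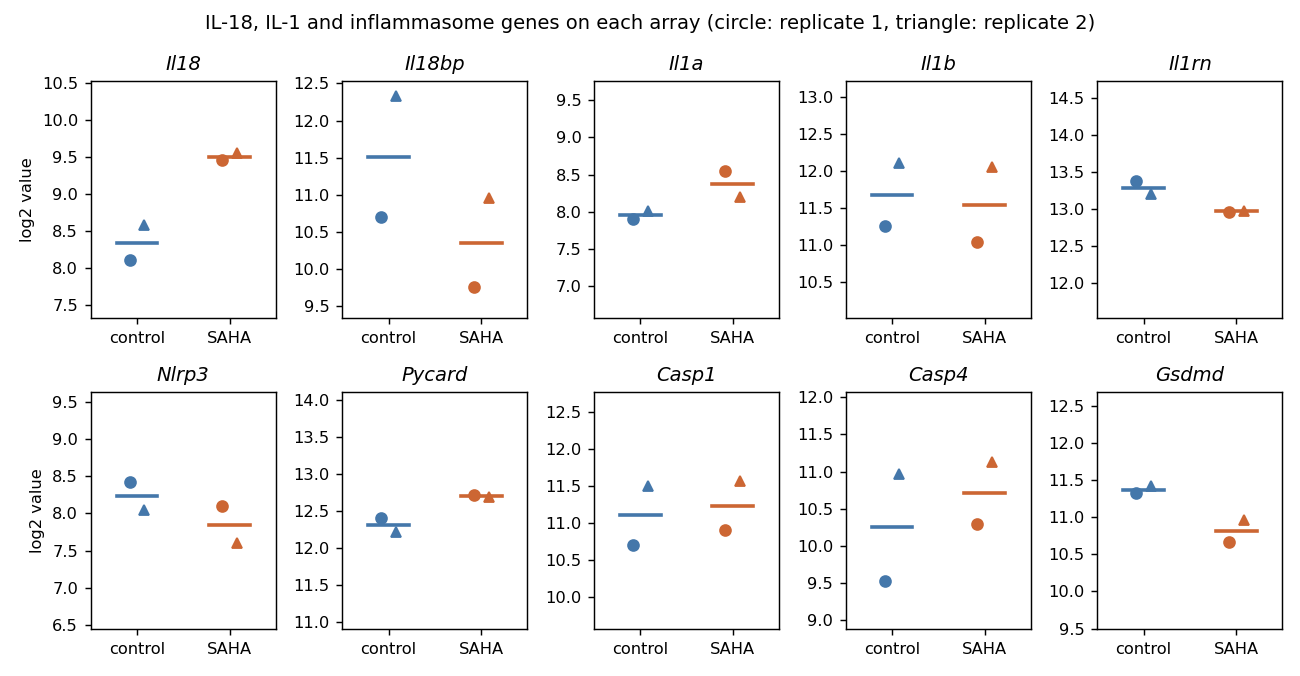
Log2 value (vertical axis, a span of 3.2 units in every panel) of the 10 genes on each of the 4 arrays, control in blue and SAHA in orange. Circles are replicate 1, triangles replicate 2 and bars the mean of 2 arrays. For Il18 both SAHA arrays (9.46 and 9.55) lie above both control arrays (8.11 and 8.58), while for Il1b, Casp1 and Casp4 the arrays of the groups interleave.

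The regions just upstream of Il18 and Il18rap are shown because these are the genes of IL-18 and its receptor that rose. Each line gives the 250 bases before the RefSeq transcript start, 5′ to 3′ on the plus strand of GRCm38.p6, with matches to the motifs searched in capitals. The Il18 window is chr9:50554450-50554699 and the Il18rap window is chr1:40515112-40515361.
Il18: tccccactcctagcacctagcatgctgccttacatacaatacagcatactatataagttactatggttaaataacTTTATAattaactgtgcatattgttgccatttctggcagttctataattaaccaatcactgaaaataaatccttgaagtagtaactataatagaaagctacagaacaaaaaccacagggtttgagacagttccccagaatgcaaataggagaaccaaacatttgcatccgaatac
Il18rap: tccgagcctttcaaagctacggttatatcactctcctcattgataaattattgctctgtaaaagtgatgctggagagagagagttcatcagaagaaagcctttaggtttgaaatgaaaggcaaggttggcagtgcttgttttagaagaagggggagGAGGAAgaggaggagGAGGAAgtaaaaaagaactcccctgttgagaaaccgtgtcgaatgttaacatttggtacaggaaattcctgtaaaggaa
Both strands were searched for the AP-1 motif TGANTCA, the core GAGGAA of PU.1 sites, the C/EBP motif TTGCNNAA, the STAT motif TTCNNNGAA, the Sp1 motif GGGCGG, the TATA box motif TATAAA, the CRE motif TGACGTCA and the NF-kB consensus. The Il18 window held a single match, TATAAA on the minus strand, which starts 175 bases before the transcript start and reads TTTATA on the strand shown. TATAAA was found in 12.4% of the 32851 windows of the same length in the RefSeq table. The Il18rap window held 2 matches to GAGGAA, 94 and 79 bases before the start and not overlapping each other, and that motif was found in 23.3% of windows. A match is a description of the letters and shows no binding. Of the 10 genes 9 had a window in the table, and Gsdmd had none.

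Il18, the cytokine itself, read 8.11 and 8.58 in control and 9.46 and 9.55 in SAHA-treated cells (log2 values, replicates 1 and 2). Both treated arrays were higher than both control arrays, and the treated arrays lay closer together. The log2 change was 1.16 ± 0.19 (SE, 95% interval 0.70 to 1.62, limma adjusted p = 0.0407), from a mean of 8.34 ± 0.33 to 9.50 ± 0.06 (SD, n = 2 per group). Il18 had 1 probe set, so no other probe set bears on this value. Without SAHA replicate 1 the change was 1.21 with an adjusted p of 0.187, and without SAHA replicate 2 it was 1.12 with an adjusted p of 0.143, so the call was lost in both fits. It was also lost with quantile normalization (1.11, adjusted p = 0.0551) and in the other settings listed in the closing section, and over all 16 alternatives the adjusted p ranged from 5.1e-05 to 0.396 and the change from 0.93 to 1.40.

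Il18bp, the soluble protein that binds IL-18 and keeps it from its receptor, read 10.70 and 12.33 in control and 9.75 and 10.95 in SAHA-treated cells. The groups overlapped, since the higher treated array lay above the lower control array. The log2 change was -1.16 ± 0.57 (SE, 95% interval -2.55 to 0.22, limma adjusted p = 0.352). This was the lowest of the 10 changes and the least precise, and the interval includes both no change and a fall far larger than the estimate. Without control replicate 2 the change was -0.35, and without control replicate 1 it was -1.97. On each array the log2 ratio of Il18 to Il18bp was formed, whose absolute level has no meaning because the probe sets differ. That ratio was -2.60 and -3.75 in control and -0.29 and -1.40 in SAHA-treated cells, a shift of 2.33. It joins the changes of Il18 and Il18bp, the highest and the lowest of the 10, and so carries the imprecision of Il18bp. The groups of the ratio did not overlap, as was so for 50.7% of single genes. An exact two-sided permutation test gave p = 0.333, the smallest that 2 against 2 arrays can give.

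The IL-18 receptor is built from a binding chain, Il18r1, and a signalling chain, Il18rap. Il18rap read 6.62 and 6.40 in control and 8.27 and 8.58 in SAHA-treated cells, with both treated arrays well above both control arrays. Its log2 change was 1.91 ± 0.18 (SE, 95% interval 1.48 to 2.35, limma adjusted p = 0.0127). A further Il18rap probe set, tested among all 45101 probe sets, read 5.18 and 5.55 in control and 7.12 and 7.17 in SAHA-treated cells, a change of 1.78 (adjusted p = 0.0314). Both probe sets therefore moved the same way. Without each array in turn the Il18rap change was 1.75 to 2.07. The Il18rap call was lost in an ordinary linear model (adjusted p = 0.349), in limma with a floor at the 20th percentile (adjusted p = 0.166) and at a threshold of 0.01. Il18r1, the binding chain, read 6.21 and 5.57 in control and 5.54 and 6.05 in SAHA-treated cells, and the groups overlapped. Its change was -0.10 ± 0.27 (SE, 95% interval -0.74 to 0.55, adjusted p = 0.873).

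**Figure D2:**
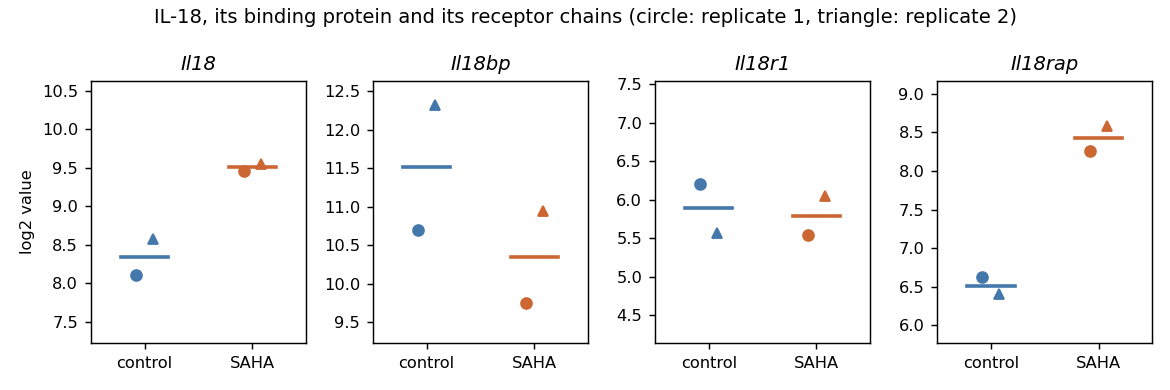
Log2 value (vertical axis, a span of 3.4 units in every panel) of Il18, Il18bp and the receptor chains Il18r1 and Il18rap on each array. Circles are replicate 1, triangles replicate 2 and bars the mean of 2 arrays. Il18 and Il18rap have both SAHA arrays above both control arrays, and Il18bp and Il18r1 have overlapping groups.

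Il1a, which encodes IL-1α, a cytokine active without caspase-1 cleavage, read 7.90 and 8.01 in control and 8.54 and 8.19 in SAHA-treated cells. Both treated arrays were above both control arrays, by a small margin for replicate 2. The log2 change was 0.41 ± 0.18 (SE, 95% interval -0.01 to 0.84, limma adjusted p = 0.284), or 0.24 without SAHA replicate 1. Il1b, which encodes IL-1β, read 11.26 and 12.10 in control and 11.04 and 12.06 in SAHA-treated cells. The arrays of each group spanned a far wider range than the difference between the groups, which was -0.13 ± 0.38 (SE, 95% interval -1.06 to 0.79, adjusted p = 0.881). The sign of the Il1b value turned when single arrays were left out, with estimates from -0.64 to 0.37.

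Il1rn, the receptor antagonist of IL-1α and IL-1β, read 13.38 and 13.20 in control and 12.96 and 12.98 in SAHA-treated cells, so both treated arrays were lower. Its log2 change was -0.32 ± 0.11 (SE, 95% interval -0.58 to -0.06, limma adjusted p = 0.202). The further Il1rn probe sets gave -0.55 (adjusted p = 0.192 over all probe sets), from 12.74 and 12.66 to 12.36 and 11.95, and -0.25 (adjusted p = 0.523), from 11.83 and 11.50 to 11.53 and 11.30. All 3 probe sets thus had a negative estimate, and none passed the threshold. On each array the log2 ratio of Il1a to Il1rn was -5.48 and -5.19 in control and -4.41 and -4.78 in SAHA-treated cells, a shift of 0.73 with an exact two-sided permutation p of 0.333. The ratio of Il1b to Il1rn shifted by 0.19, with overlapping groups and an exact permutation p of 0.667.

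The inflammasome sensor gene Nlrp3 read 8.42 and 8.05 in control and 8.10 and 7.60 in SAHA-treated cells. The groups overlapped, and the log2 change was -0.38 ± 0.23 (SE, 95% interval -0.93 to 0.16, limma adjusted p = 0.426). Without control replicate 1, SAHA replicate 1 or SAHA replicate 2 the Nlrp3 value was -0.19, -0.63 or -0.13. Pycard, the gene of the adaptor ASC that links sensor and caspase, read 12.41 and 12.22 in control and 12.72 and 12.69 in SAHA-treated cells. Both treated arrays were higher, with a change of 0.39 ± 0.12 (SE, 95% interval 0.11 to 0.67, adjusted p = 0.153). Its further probe sets gave 0.47 and 0.52 (adjusted p = 0.349 and 0.380 over all probe sets), with array values between 5.08 and 6.40, far below those of the probe set used. The 3 Pycard estimates had 1 sign, and none passed.

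Casp1, the protease that matures IL-1β and IL-18, read 10.71 and 11.50 in control and 10.91 and 11.56 in SAHA-treated cells. The groups interleaved, with a log2 change of 0.13 ± 0.31 (SE, 95% interval -0.61 to 0.87, limma adjusted p = 0.853). Casp4, the sensor and protease of the non-canonical inflammasome, lies beside Casp1 in the RefSeq gene order of GRCm38.p6, with Casp12 on its other side. Casp4 read 9.53 and 10.96 in control and 10.29 and 11.13 in SAHA-treated cells, again with interleaved groups, and a change of 0.46 ± 0.48 (SE, 95% interval -0.69 to 1.62, adjusted p = 0.651). With single arrays left out Casp1 ranged from -0.27 to 0.53 and Casp4 from -0.25 to 1.18, so neither kept its direction in all of those fits. Between arrays of equal replicate number the differences had 1 sign, 0.20 and 0.06 for Casp1 and 0.76 and 0.17 for Casp4. Gsdmd, the pore-forming substrate, read 11.32 and 11.42 in control and 10.67 and 10.97 in SAHA-treated cells. Both treated arrays were lower, and the change was -0.56 ± 0.15 (SE, 95% interval -0.91 to -0.21, adjusted p = 0.122), which kept its sign without each array in turn (-0.71 to -0.41) and missed the threshold.

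**Figure D3:**
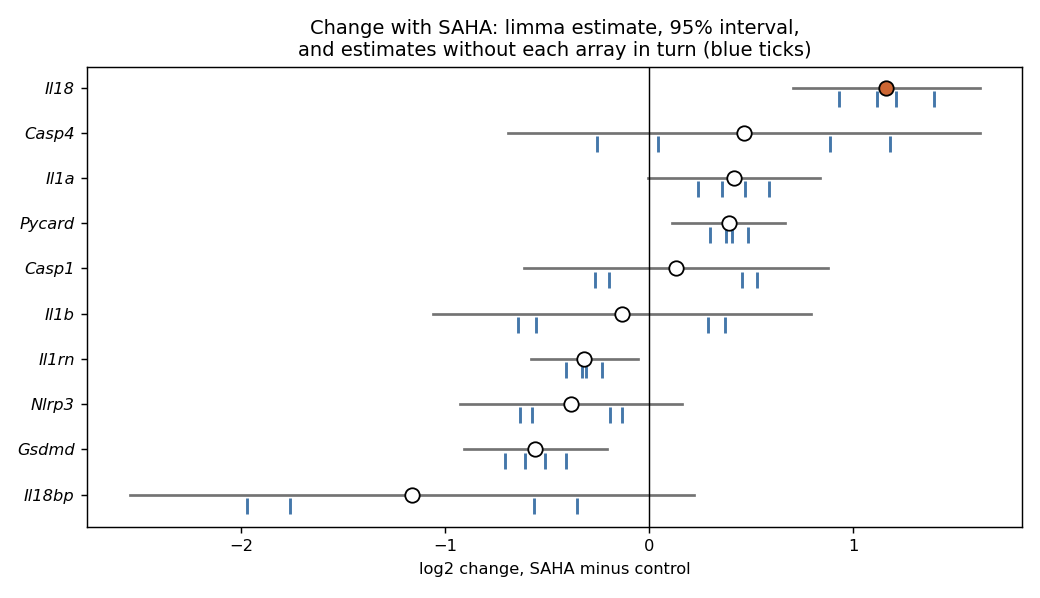
Log2 change with SAHA (horizontal axis, SAHA minus control) of the 10 genes, ordered by size. Circles are limma estimates, filled for the 1 gene past the threshold (Il18), grey lines are 95% intervals, and blue ticks are estimates without each array in turn. The intervals of Il18bp (-2.55 to 0.22) and Casp4 (-0.69 to 1.62) are the widest.

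The other genes of the pathway were described by lists, which were chosen with earlier results of these data known. Of 6 other IL-1 family ligands 5 were measured, and all 5 estimates were below 0 (median log2 change -0.25, against -0.0478 over all genes). Of these 5 genes 1 lay above the median level of all genes and the rest were weaker. In this list 1 was called lower and none higher, beside 0.709% and 1.52% of all genes. At an unadjusted p under 0.05, 2 lay lower and none higher (8.9% and 9.17% of all genes). The gene called lower was Il36g, named Il1f9 in the gene table, an epithelial and myeloid cytokine that acts through the IL-36 receptor. It read 9.72 and 9.74 in control and 8.71 and 8.85 in SAHA-treated cells and fell by 0.95 ± 0.14 on the log2 scale (SE, limma adjusted p = 0.0334), a level 1.93-fold lower. The Il36g call was lost without control replicate 2 (adjusted p = 0.0607), SAHA replicate 1 (0.211) or SAHA replicate 2 (0.106), with changes of -1.02 to -0.88, and over 16 alternatives its adjusted p ranged from 9.88e-05 to 0.332. Among 8 measured IL-1 and IL-18 receptor genes (9 listed, median 0.26) Il18rap was called higher and none lower, beside 1.52% and 0.709% of all genes. At an unadjusted p under 0.05, 3 lay higher and 1 lower (9.17% and 8.9% of all genes). The lower one was Il1rl2, with a log2 change of -0.66 (95% interval -1.09 to -0.22, limma adjusted p = 0.132). Its further probe set gave -0.75 (adjusted p = 0.163 over all probe sets). Il1r2, the decoy receptor that binds IL-1 without signalling, read 6.85 and 7.56 in control and 8.55 and 8.07 in SAHA-treated cells. Both treated arrays were above both control arrays, and the change was 1.11 ± 0.28 (SE, 95% interval 0.44 to 1.78, adjusted p = 0.112), or 1.46 with an adjusted p of 0.0323 without control replicate 2. The adjusted p of Il1r2 ranged from 0.00275 to 0.503 over 16 alternatives.

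Downstream of these receptors 15 of 16 listed signalling genes were measured, and none passed (limma, median log2 change -0.0011), beside 2.23% of all genes. At an unadjusted p under 0.05, 2 lay higher and 2 lower (9.17% and 8.9% of all genes). Nfkbiz, an atypical IκB protein induced by IL-1, had a change of 0.62 ± 0.18 (SE, adjusted p = 0.145), and its further probe sets gave 0.52 and 0.29. Ikbkb, the kinase IKKβ, had a change of -0.54 ± 0.12 (SE, adjusted p = 0.0927), and its further probe sets gave estimates between -1.11 and -0.17. All estimates for each of these genes had 1 sign, and none of the further probe sets passed over all probe sets.

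Of 12 other inflammasome sensors 8 were measured (median log2 change 0.20). In this list 1 was called higher and none lower, beside 1.52% and 0.709% of all genes. At an unadjusted p under 0.05, 3 lay higher and none lower (9.17% and 8.9% of all genes). The gene called higher was Nlrp10, an NLR protein without leucine-rich repeats, which read 3.84 and 3.75 in control and 4.57 and 4.50 in SAHA-treated cells. Both control values fell below the 25th percentile of the array in question (3.99 and 4.04), so the size of the rise, 0.74 ± 0.11 as measured (SE, limma adjusted p = 0.0334) and 0.27 once 32 was added to every linear value, is uncertain. The call was lost without control replicate 2 (adjusted p = 0.0624) or either SAHA array (0.173 and 0.0985), within a range of 0.000607 to 0.331 over 15 alternatives. Aim2, the sensor of cytosolic DNA, read 6.84 and 7.02 in control and 7.65 and 7.60 in SAHA-treated cells, a change of 0.70 ± 0.16 (SE, adjusted p = 0.0856).

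Of 19 regulators and triggers of inflammasomes 15 were measured (median log2 change 0.04). In this list 1 was called higher and none lower, beside 1.52% and 0.709% of all genes. At an unadjusted p under 0.05, 5 lay higher and 3 lower (9.17% and 8.9% of all genes). The gene called higher was Serpinb1a, an inhibitor of neutrophil serine proteases that is also known to restrain caspase-1. It read 6.23 and 6.06 in control and 9.17 and 8.75 in SAHA-treated cells, a rise of 2.81 ± 0.19 (SE, limma adjusted p = 0.00833). A further Serpinb1a probe set, which read 4.04 and 3.95 in control and 4.74 and 4.57 with SAHA, gave 0.66 (adjusted p = 0.0946 over all probe sets), and the mean of both probe sets gave 1.74. Txnip, a thioredoxin-binding protein described as an NLRP3 ligand, had a change of 0.71 ± 0.14 (SE, adjusted p = 0.0610), from 11.38 and 11.24 to 12.14 and 11.89, and its further probe set gave 0.51. Of 14 cell death effectors and proteases that cut IL-1 family cytokines 11 were measured (median -0.05). In this list 1 was called higher and none lower, beside 1.52% and 0.709% of all genes. At an unadjusted p under 0.05, 2 lay higher and 1 lower (9.17% and 8.9% of all genes). The gene called higher was Prtn3, proteinase 3, a granule protease able to process IL-1β and IL-18 outside the cell. It read 5.11 and 5.72 in control and 9.22 and 8.92 in SAHA-treated cells, a rise of 3.65 ± 0.24 (SE, limma adjusted p = 0.00833). Elane and Ctsg, the related neutrophil proteases, had values of -0.25 and -0.05. Gsdme, a gasdermin cut by caspase-3, had a change of 0.74 ± 0.27 (SE, adjusted p = 0.220), and its further probe set 0.97 (adjusted p = 0.0734 over all probe sets). Without SAHA replicate 1 the Gsdme value was 0.37. Without each array in turn the change was 2.60 to 3.02 for Serpinb1a and 3.35 to 3.96 for Prtn3. Both calls were lost in an ordinary linear model (adjusted p = 0.335 for Serpinb1a and 0.342 for Prtn3). They were also lost in limma with a floor at the 20th percentile (adjusted p = 0.158 for both).

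**Figure D4:**
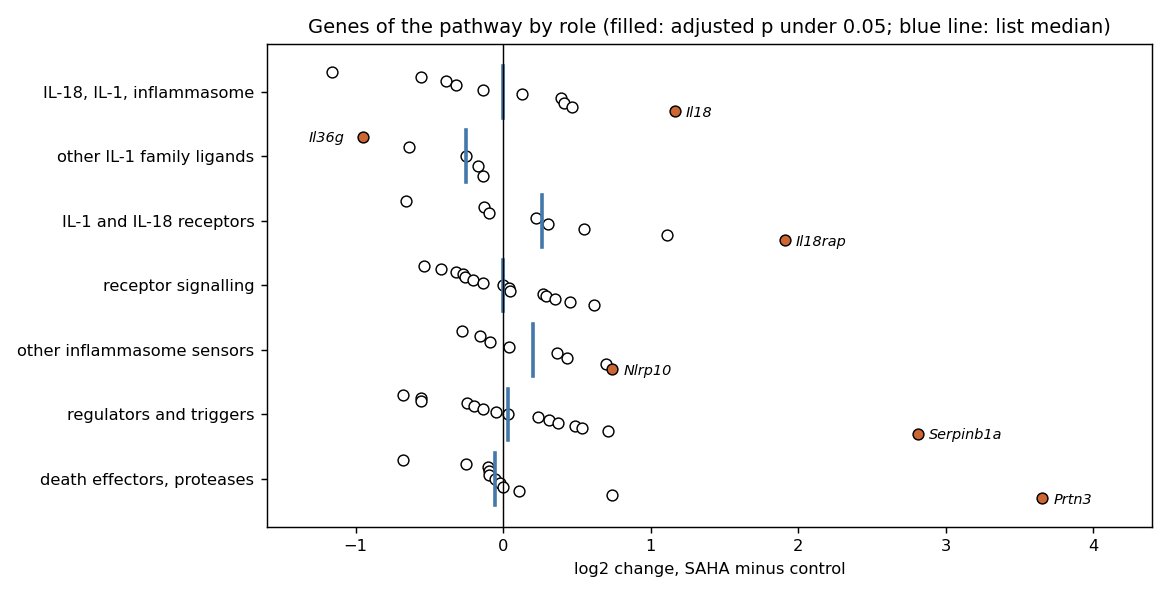
Log2 change with SAHA (horizontal axis) of the 10 genes (top row) and of 6 lists of further pathway genes, one circle a gene. Filled circles passed the threshold and are named, and blue lines are list medians. Prtn3 (3.65), Serpinb1a (2.81) and Il18rap (1.91) lie farthest to the right, and Il36g (-0.95) is the called gene on the left.

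By a rule of likeness, genes were ranked by the Euclidean distance of their 4 centred log2 values from those of Il18, among 9087 further genes above the median level. The nearest were Ndrg2 (distance 0.09), Cish, Gtpbp8, Gca and 4933412E12Rik (0.14), with log2 changes of 1.08 to 1.18. The nearest to Il18bp was Aif1 (0.08), which read 9.27 and 10.87 in control and 8.40 and 9.51 in SAHA-treated cells. The next were Slfn4 (0.35), Ube2l6, Tbc1d4 and Maf (0.45). Likeness over 4 arrays is a description.

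The labelled cell type was set against marker lists on the same arrays. No gene was called in the lists for T and NK cells (log2 changes -0.19 to 0.05), B cells (-0.51 to -0.08) and erythroid cells (-0.31 to -0.07). The same held for mast cells and basophils (-0.45 to 0.02) and plasmacytoid dendritic cells (-0.41 to 0.92), beside 2.23% of all genes. Of 10 dendritic cell markers none passed the threshold (limma), beside 2.23% of all genes. At an unadjusted p under 0.05, 1 lay higher and 1 lower (9.17% and 8.9% of all genes). The higher one was Ciita, with a log2 change of 1.09 (limma adjusted p = 0.0759), and its further probe sets gave 0.92 and 0.63. The lower one was Ccr7, with -0.49 (limma adjusted p = 0.1175). Itgax read 13.40 and 12.44 in control and 13.16 and 12.46 in SAHA-treated cells, lower on replicate 2 in both groups. Cd74 read 14.17 to 14.23 and Zbtb46 7.76 to 7.93, while Cd209a lay low at 4.47 to 4.68. Of 9 measured macrophage markers none passed, beside 2.23% of all genes. At an unadjusted p under 0.05 none lay higher and 1 lower (9.17% and 8.9% of all genes). That 1 was Mertk, with a log2 change of -0.92 (limma adjusted p = 0.0509). Over the list 2 estimates lay above 0 and 7 below. Csf1r read 13.81 to 13.96 and Adgre1 11.88 to 11.99. C1qa spanned 10.56 to 12.22 and Fcgr1 10.84 to 12.72, each higher on replicate 2 than on replicate 1 in both groups. Among 11 measured neutrophil markers 5 were called lower (Ngp, Ltf, S100a9, Camp and S100a8) and none higher, beside 0.709% and 1.52% of all genes. The median log2 change of these markers was -0.68. Their summed linear level was 8913 and 6724 in control and 10200 and 8643 in SAHA-treated cells, a sum carried by Mmp8, which read 12.41 and 11.68 in control and 13.05 and 12.75 with SAHA. In control cells S100a8 read 10.78 and 10.64, S100a9 9.55 and 9.49, Lcn2 8.30 and 8.82, Ngp 8.20 and 8.05, Ltf 7.11 and 7.50 and Camp 6.72 and 6.88. Of the primary granule genes, Mpo, Ctsg and Elane read 3.62 to 5.61 over all arrays, beside array 25th percentiles of 3.94 to 4.04 and medians of 5.34 to 5.35. Prtn3, a further primary granule gene outside the marker list, went the other way, from 5.11 and 5.72 in control to 9.22 and 8.92 with SAHA. The part of these markers in the values above, Il1rn, Il1b and Prtn3 among them, was not tested. In bulk RNA, fewer cells of a type and less RNA per cell cannot be told apart.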

How the data were processed

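Total RNA was measured on 4 Affymetrix arrays, and the titles of the samples gave the groups. The authors deposited 1 table of values per probe set, on a log2 scale as read from the values (2.59 to 14.97, array medians 5.34 to 5.35). The submitters' processing notes name R 2.7. The probe summary and normalization methods are not given in the sources used here. Of 45101 probe sets 34958 had 1 gene symbol, 932 several and 9211 none in the platform annotation. Symbols were updated through Entrez identifiers with a RefSeq table of GRCm38.p6 (34754 matched). No intensity filter was used. Arrays give no read depth, and their number limits the precision.

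SAHA was compared with control over all 18194 genes with limma 3.58.1 in R 4.3.3 (lmFit, eBayes with intensity trend), two-sided, with no covariate and a Benjamini-Hochberg adjusted p under 0.05. On simulated arrays (5 draws of 18194 genes, 200 changed) the fit called 28.0% of genes changed 2-fold and 74.2% of those changed 4-fold. A fold is the ratio after undoing log2, and an SE is moderated. The 10 genes and all lists were chosen with earlier results of these data known. Genes named from a list were up to 4 past the threshold, filled to 2 with the largest changes above the median level. Elane, Ctsg, Il18r1, Il1rl2 and the marker genes were picked with their values known. The alternatives are those of the closing section.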

Additional observations from a re-analysis of the deposited data

How the results depend on the processing

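The counts over the 10 genes and over all genes, and the changes of the 10 genes, were recomputed under 16 alternatives. Of these, 4 left out an array, after which the single array left in a group borrows its spread from the other group. Genes named from the pathway lists by rule took the same alternatives, 15 of them for Nlrp10. The counts of the pathway lists took only part of them. Marker genes, further probe sets, ratios and likeness were not recomputed. The count of the 10 genes called higher (1, Il18) went to 0 in an ordinary linear model, with quantile normalization, with a floor at the 20th percentile, among genes above the median level, with the mean of probe sets, over every probe set and at a threshold of 0.01, and was 0 to 1 without each array. Over all genes the counts of 276 higher and 129 lower became 0 and 0 in the ordinary model and with the floor (which sets 1721 genes to 1 value on all arrays), 154 and 72 among genes above the median level, 183 and 58 over every probe set, 7 and 1 at 0.01, and 25 to 362 and 6 to 167 without each array. The lower count was 84 with the mean of probe sets. With replicate number as a block the 10 genes gave 3 higher (Il18, Casp4, Pycard) and 3 lower (Il18bp, Il1rn, Gsdmd), and all genes 1954 and 1662. Deviations of control and SAHA arrays from their group means correlated at 0.57 between equal numbers, but no label ties a number to a shared culture and there are 2 pairs, so the block was not used for calls. Of the values for the 10 genes 141 kept their direction and side of the threshold, 9 lost the threshold (all Il18), 5 gained it (all with the block) and 5 changed direction. Those that changed direction were Il1b (-0.64 to 0.37), Casp1 (-0.27 to 0.53) and Casp4 (-0.25 to 1.18) without single arrays, and the cause was not tested.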

Other observations

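For 4 of the 10 genes, Il18bp, Il1b, Casp1 and Casp4, both arrays numbered 2 lay above both arrays numbered 1, whichever the treatment, and for Nlrp3 both lay below. Over all genes 20.9% had both arrays numbered 2 above. Il18bp read 1.62 log2 units higher on control replicate 2 than on control replicate 1 and 1.20 higher on the corresponding SAHA array. For Casp4 these differences were 1.44 and 0.84, for Il1b 0.84 and 1.02, and for Casp1 0.80 and 0.65. The genes high on both arrays numbered 2 also had the 4 widest intervals. This follows from the fit, whose SE rests on the differences between the arrays of a group. Il18, Il1a, Il1rn, Pycard and Gsdmd differed by 0.47 or less between the arrays of a group.

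Between arrays of the same number the difference with SAHA had 1 sign in both numbers for each of the 10 genes, beside 71.9% of all genes and 79.1% of genes above the median level. It was 1.35 and 0.97 for Il18, -0.95 and -1.38 for Il18bp, 0.76 and 0.17 for Casp4, and -0.22 and -0.05 for Il1b. What the numbers stand for is not stated in the labels, and these differences were not used for calls.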
